A study of Rattus norvegicus with 6 samples.

Results

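The kidney makes its own dopamine. Proximal tubule cells take up the precursor L-DOPA, decarboxylate it, and release dopamine that acts on receptors of the same tubule to lower sodium reabsorption. Amine oxidases and polyspecific transporters clear the amine, and a G-protein-coupled receptor kinase uncouples its receptor. Impaired renal dopamine signalling has been described in salt-sensitive hypertension, in rats and in humans.

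The 7 genes followed here cover these steps in order. Ddc encodes aromatic L-amino acid decarboxylase, which makes dopamine from L-DOPA. Maoa and Maob encode the mitochondrial monoamine oxidases, Rnls encodes renalase, a flavoprotein first described as a circulating amine oxidase and later as an oxidase of isomeric NAD(P)H, and Slc22a3 encodes the organic cation transporter that takes monoamines into non-neuronal cells. Drd1 encodes the D1 dopamine receptor, and Grk4 encodes the kinase that phosphorylates that receptor, variants of which have been associated with human hypertension. With earlier results of these data known, the genes were chosen by name. Together they had 12 probe sets with 1 platform gene symbol, of 20826 such probe sets for 14217 genes on the array, and the probe set with the highest mean over the 6 arrays gave the main value of each gene.

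Kidney RNA of adult male rats was hybridised to Affymetrix arrays, with 3 S.LEW(D1MCO4x1x3Bx1) congenic rats and 3 inbred Dahl salt-sensitive (SS/Jr, here S) rats, 1 array each. The congenic rats carry a Lewis (LEW) donor segment on the S background, so both groups share the salt-sensitive background outside it. The sources used here give neither age in weeks nor salt intake, blood pressure or litter, and p-values measure the spread between these 6 arrays. Values are scaled probe set signals, given as mean ± SD over 3 rats. Signals of different probe sets were not compared with each other, because hybridisation strength differs between them. In whole-kidney RNA, fewer cells of a type and less RNA per cell cannot be told apart.

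The arrays were alike in overall signal, with medians between 162 and 178. Of the proximal tubule markers, 12 of 12 passed the filter on low signals, a mean signal of 165. Chga, the chromogranin of adrenal medulla and sympathetic nerve, stayed under the floor of 12.3 on all 6 arrays, and 1 of 8 measured markers of those tissues passed the filter (Npy).

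Of the 7 genes, 4 (Ddc, Maoa, Maob and Rnls) passed that filter and 3 (Slc22a3, Drd1 and Grk4) did not. No member was called at adjusted p 0.05 (0 of 7), and limma with Benjamini-Hochberg adjustment called 0% of the 15521 probe sets tested and 0% of all 31042. At unadjusted p below 0.05 there were 0 of the 7, against 10.3% of the probe sets tested and 7.92% of all. Under some alternatives Maoa, Drd1 and Grk4 crossed the unadjusted threshold, as given with each gene. In 1 gene, Maoa, all 3 congenic values lay above all 3 S values. Such separation in either direction was found for 16% of the probe sets tested and 13.2% of all, and separation upwards for 7.98% of those tested, so 1 of 7 is near the background.

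Synthesis of dopamine was represented by Ddc. Its brightest probe set read 5318, 5721 and 5236 in congenic rats 1 to 3, and 5725, 5304 and 5173 in S rats 1 to 3. The groups overlapped throughout, with 1 high rat in each strain. The means were 5425 ± 260 in congenic and 5401 ± 289 in S kidneys (SD, n = 3 each). On the log2 scale the difference, congenic minus S, was 0.01 ± 0.08 (here and below, ± beside a log2 difference is its standard error), and the sign turned after quantile normalisation (-0.03). The 95% interval of the fold ran from 0.895 to 1.13, the narrowest among the 12 probe sets (limma adjusted p = 0.983, exact permutation p = 0.8). The second probe set of Ddc read 156, 163 and 166 in congenic rats and 220, 186 and 141 in S rats. Its S values fell on both sides of the congenic ones, and the log2 difference was -0.15 ± 0.24.

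The proximal tubule, where renal Ddc is expressed, had a summed marker signal of 163790 to 173392 in congenic and 149951 to 167086 in S kidneys. Such a sum gives bright probe sets the most weight and is no measure of tubule content. Of the 12 proximal tubule markers, 9 had a positive log2 difference, with a median of 0.09. Over all named genes tested, 4891 of 9334 were positive, with a median of 0.01. Hnf4a was the 1 marker of the 12 at unadjusted p below 0.05, with a log2 difference of 0.23. Of all named genes tested, 10.4% were below that p in either direction and 5.55% upwards. The part of tubule content in the readings of Ddc was not tested.

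**Figure D1:**
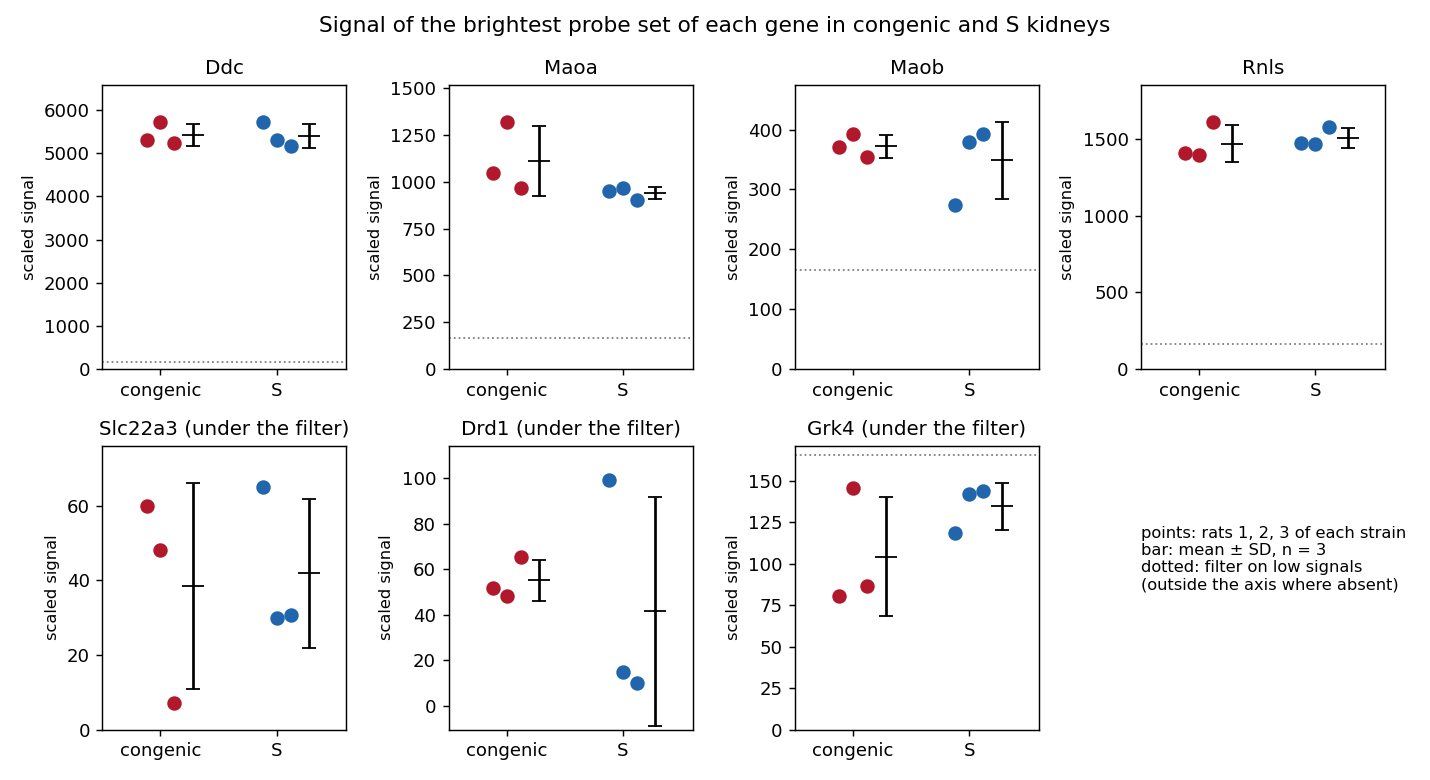
Scaled signal (linear axes, each panel with its own scale) of the brightest probe set of the 7 genes in 3 congenic (red, left) and 3 S (blue, right) kidneys; points are rats in replicate order and black bars are mean ± SD. The Maoa points of the strains are separate by a narrow margin, while those of the other 6 genes overlap.

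Breakdown of the amine was covered by Maoa, Maob and Rnls. Maoa, the oxidase that prefers serotonin and noradrenaline and also oxidises dopamine, read 1045, 1321 and 970 in congenic rats and 950, 965 and 902 in S rats. All congenic values were above all S values, but congenic rat 3 lay just above the highest S rat and congenic rat 2 stood well above the rest. The means were 1112 ± 185 in congenic and 939 ± 32.9 in S kidneys, a fold of 1.18. The log2 difference was 0.23 ± 0.12, and its 95% interval -0.03 to 0.49 (limma unadjusted p = 0.0758, adjusted p = 0.527). The exact permutation test gave p = 0.1, the smallest that 3 against 3 allows. Without congenic replicate 2 the log2 difference was 0.10 and without congenic replicate 3 it was 0.32. In limma the unadjusted p of Maoa fell below 0.05 without congenic replicate 3 (0.0264) and with arrays centred on the median (0.0398), while its adjusted p was 0.393 or more under the alternatives run. Maoa had a single probe set, of the kind Affymetrix marked with the suffix _s_at because its probes can match several transcripts.

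Maob, the oxidase that prefers phenylethylamine, lies beside Maoa in gene order. It read 370, 392 and 354 in congenic rats, against 275, 379 and 392 in S rats. S rat 1 was the lowest of the 6, and the other S rats lay within the congenic range, S rat 3 at its upper end. The means were 372 ± 19.0 in congenic and 348 ± 64.2 in S kidneys. This was 0.11 ± 0.17 on the log2 scale (limma adjusted p = 0.853, exact permutation p = 0.8), with a 95% interval of -0.26 to 0.48. When S replicate 1 was left out it was -0.05.

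Rnls read 1408, 1396 and 1614 in congenic rats and 1479, 1467 and 1583 in S rats. In both strains the third rat was the highest, and the congenic range enclosed the S range. The means were 1473 ± 123 in congenic and 1510 ± 63.8 in S kidneys. Their log2 difference was -0.04 ± 0.10, and it was 0.03 with arrays centred on the median (limma adjusted p = 0.917, exact permutation p = 0.6). The interval of the fold was 0.845 to 1.12. Its second probe set averaged 365 ± 40.4 in congenic and 365 ± 38.8 in S kidneys, a log2 difference of -0.00106. The third, under the filter, averaged 110 ± 21.8 in congenic and 88.1 ± 23.7 in S kidneys, with a log2 difference of 0.34 ± 0.31.

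Uptake of amines from the extracellular space was represented by Slc22a3, whose single probe set was under the filter. It read 59.9, 48.1 and 7.24 in congenic rats, against 65.0, 30.0 and 30.7 in S rats. Congenic rat 3 was below the floor of 12.3, and the other congenic values lay among the S values. In the fit over all probe sets the log2 difference was -0.25 ± 0.71 (limma adjusted p = 0.947, exact permutation p = 0.8). Leaving out congenic replicate 3 gave 0.46 and leaving out S replicate 1 gave 0.11. The 95% interval ran from -2.02 to 1.51, and no direction was detectable at this signal.

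Slc22a3 and Rnls lie on the chromosome of Adamts16, the gene named in the title of the series. In the gene order of assembly GRCr8, 80 protein-coding genes lie between Slc22a3 and Adamts16, and 2661 between Rnls and Adamts16. The sources used here do not give the ends of the donor segment, so no statement is made about whether it reaches them. The other 5 genes lie on other chromosomes.

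The receptor gene Drd1 was dim on both of its probe sets. The brighter probe set read 51.8, 48.5 and 65.6 in congenic rats, and 99.5, 15.0 and 10.1 in S rats. The congenic values were close together, while S rat 1 was the highest of all 6 and the other S rats were the lowest. The means were 55.3 ± 9.04 in congenic and 41.5 ± 50.3 in S kidneys, and the log2 difference was 1.05 ± 0.85 (limma adjusted p = 0.780, exact permutation p = 0.4). The 95% interval of -1.05 to 3.16 spans both directions. S rat 3 was below the floor of 12.3 and was set to it before log2 was taken. Without S replicate 1 the log2 difference was 2.01, with unadjusted p = 9.57e-04 and adjusted p = 0.299 in limma. Of the S values then left, 1 was set to the floor and the other was 15.0, so the floor narrowed their spread.

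The second Drd1 probe set read 2.40, 46.9 and 67.7 in congenic rats and 14.5, 2.97 and 11.4 in S rats. Congenic rat 1 and S rats 2 and 3 were below the floor of 12.3, and the value of S rat 1 was not high here. It differed by 1.38 ± 0.65 on the log2 scale (unadjusted p = 0.0805, adjusted p = 0.648). The 2 probe sets thus placed S rat 1 and congenic rat 1 differently.

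Grk4 had 2 probe sets, both under the filter. The brighter read 80.8, 145.5 and 86.8 in congenic rats, against 118, 142 and 144 in S rats. Congenic rats 1 and 3 were below all S rats, whereas congenic rat 2 was above them. The means were 104 ± 35.8 in congenic and 135 ± 14.2 in S kidneys. Their log2 difference was -0.42 ± 0.30 (limma adjusted p = 0.763, exact permutation p = 0.4). Without congenic replicate 2 it was -0.68 (unadjusted p = 0.0476, adjusted p = 0.669). The second probe set averaged 26.9 ± 19.3 in congenic and 24.8 ± 11.1 in S kidneys, with a log2 difference of 0.08 and an interval of -1.47 to 1.62.

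**Figure D2:**
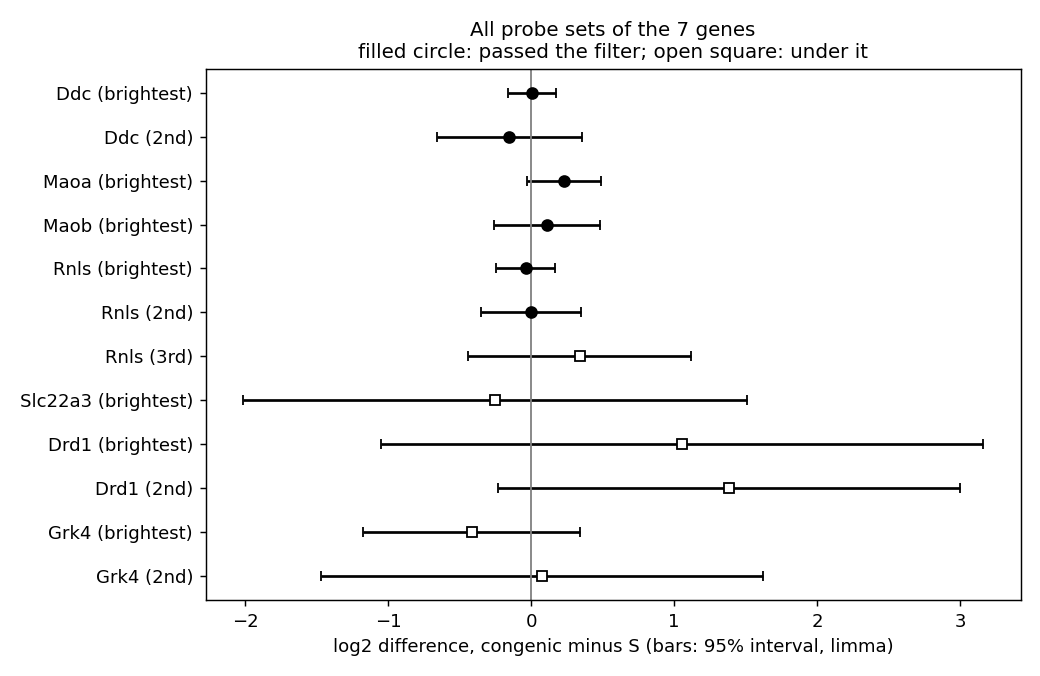
Log2 difference, congenic minus S, with its 95% interval from limma, for the 12 probe sets of the 7 genes; filled circles passed the filter on low signals and open squares did not. The 12 intervals include 0, and those of the probe sets under the filter are the wider ones.

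The rats that stood out differed from gene to gene. Over the 7 genes, congenic rat 2 had the highest log2 signal of Maoa, Maob and Grk4, and S rat 1 that of Ddc, Drd1 and Slc22a3. S rat 3 had the lowest of Ddc, Maoa and Drd1. Each sample title opens with a number whose meaning the labels do not explain, below 10 for congenic rats 1 and 2 and S rat 1, and above 10 for congenic rat 3 and S rats 2 and 3. Within the lower numbers the log2 difference of Drd1 was -0.99, and within the higher numbers it was 2.27, so its direction did not hold in both. That of Maob was 0.47 in the lower and -0.12 in the higher numbers. That of Maoa was 0.31 and 0.06, of Grk4 -0.13 and -0.72, and of Slc22a3 -0.27 and -1.30, in the same order. For Ddc they were -0.05 and -0.00047, and for Rnls -0.08 and 0.08. Scatter within a strain was low for Ddc, with a coefficient of variation of 4.78% in congenic and 5.34% in S kidneys. For Maoa it was 16.6% in congenic and 3.51% in S kidneys, and for Rnls 8.32% in congenic and 4.23% in S kidneys. For Drd1 it was 16.4% in congenic and 121% in S kidneys, and for Slc22a3 72.0% in congenic and 47.7% in S kidneys.

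Several genes followed each member closely over the 6 arrays, as a description of these arrays alone. The genes most like Ddc in log2 signal were Slc40a1 (Pearson r = 0.994) and Mcm6 (0.987). Those most like Maoa were Ripk1 (0.994) and Mrpl21 (0.990), and those most like Maob were Hltf (0.990) and Xrn1 (0.986). For Rnls they were Wars1 (0.985) and Setd4 (0.981), for Drd1 Cyb5b (0.993) and Mrtfa (0.991), for Grk4 Sec61b and Zfp318 (0.979 each), and for Slc22a3 Pcmtd1 (0.991) and Cct7 (0.989). Among 12421 named probe sets searched, 65 to 138 had r over 0.9 with a given member, so close likeness was common with 6 arrays.

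The rest of the pathway was followed in 8 lists of 88 genes by role, of which 75 had a named probe set and 49 passed the filter. None of the 49 was called at adjusted p 0.05 (smallest adjusted p = 0.348, limma). At unadjusted p below 0.05 there were 4 of 49, or 8.16%, against 10.4% of the 9334 named genes tested. Of these, 2 were higher and 2 lower in congenic kidneys, against 5.55% higher and 4.84% lower over all named genes tested. With arrays centred on the median, 11 were higher and 0 lower, against 11.97% of all tested probe sets in either direction. Centring also moved the median log2 difference of all tested probe sets from -0.01 to 0.06. The part of that shift in the count was not tested. The 3 congenic and 3 S values did not overlap in 9 of 49 genes (18.4%), against 17% of the named genes tested. The median log2 difference of the 49 genes was -0.01.

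Synthesis of dopamine from tyrosine depends on tetrahydrobiopterin, the cofactor of tyrosine hydroxylase. The decarboxylation of L-DOPA taken up by the tubule comes after that step. Of the 13 genes of amine synthesis, 8 had a probe set and 3 passed the filter, all with negative log2 differences that did not pass the test. Pts, which makes a precursor of the cofactor, averaged 1073 ± 194 in congenic and 1245 ± 218 in S kidneys, a log2 difference of -0.22 that was -0.066 without congenic replicate 2. Gchfr, which regulates the first enzyme of cofactor synthesis, had -0.07. Qdpr, which regenerates the cofactor, had -0.05, and 0.02 with arrays centred on the median. Th, the tyrosine hydroxylase gene of catecholamine cells, was under the filter and averaged 52.4 ± 40.5 in congenic and 82.8 ± 12.6 in S kidneys, with overlapping values.

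The supply of L-DOPA was covered by 8 genes of amino acid uptake, of which 6 passed the filter, 4 with positive log2 differences. Slc3a2, the heavy chain shared by several amino acid exchangers, read 7576, 7220 and 7389 in congenic rats, against 7213, 6664 and 5776 in S rats. Congenic rat 2 and S rat 1 were nearly level, and the groups were separate by that margin. This was a log2 difference of 0.18 ± 0.09 (limma unadjusted p = 0.0558, adjusted p = 0.493). Slc3a1, the heavy chain of the brush border cystine transporter, had 0.16, and 0.083 when congenic replicate 3 was left out. Slc7a8, a light chain that carries L-DOPA across the basolateral membrane, averaged 1650 ± 248 in congenic and 1894 ± 265 in S kidneys, a log2 difference of -0.20 that was -0.093 without congenic replicate 2.

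Beyond the oxidases, 18 genes of amine and aldehyde breakdown were listed, of which 13 passed the filter, 4 with positive and 9 with negative log2 differences (median -0.04). None reached unadjusted p below 0.05. Akr1b1, an aldose reductase that also reduces aldehydes of amine breakdown, averaged 5097 ± 529 in congenic and 4274 ± 1049 in S kidneys, a log2 difference of 0.28. Without S replicate 3, the lowest rat, it was 0.064, and when S replicate 1 was left out it was 0.42. Aldh7a1, an aldehyde dehydrogenase, had 0.14, and 0.046 when S replicate 2 was left out. Nat1, an arylamine acetyltransferase, had -0.28 ± 0.19, with -0.14 to -0.44 when 1 array was left out. Its other probe set, under the filter, had 0.42.

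Of 12 amine transporter genes, 5 passed the filter. Slc22a2, the organic cation transporter of the basolateral proximal tubule and the neighbour of Slc22a3 in gene order, read 6653, 6530 and 5801 in congenic rats, against 5043, 4781 and 6187 in S rats. Congenic rats 1 and 2 were above all S rats, and S rat 3 was above congenic rat 3. The means were 6328 ± 460 in congenic and 5337 ± 748 in S kidneys, a log2 difference of 0.25 ± 0.10 (limma unadjusted p = 0.0219, adjusted p = 0.402). Its unadjusted p in limma was 0.0889 without the variance trend and 0.0739 without the filter. It was 0.0690 without congenic replicate 1, 0.0702 without congenic replicate 2, 0.0690 without S replicate 1 and 0.108 without S replicate 2. Without congenic replicate 3 it was 0.0137, and without S replicate 3 it was 0.00172. Slc47a1, the apical exporter of organic cations, had -0.10 and the carnitine transporter gene Slc22a5 had 0.09.

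Among receptors, the 4 other dopamine receptor genes (Drd2, Drd3, Drd4 and Drd5) were all under the filter. Their summed signal, in which brighter probe sets weigh more, was 159 to 221 in congenic and 127 to 255 in S kidneys. Of 9 adrenergic receptor genes, 2 passed. Adra1b, which couples noradrenaline to calcium release, had a log2 difference of 0.12, and 0.019 when S replicate 2 was left out. Adra2b, an inhibitory receptor of the proximal tubule in rats, had 0.07, whereas its other 2 probe sets had -0.17 and -0.20.

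Of 7 other receptor kinase and arrestin genes, 5 passed the filter and none reached unadjusted p below 0.05. The arrestin genes Arrb2 and Arrb1, whose products bind phosphorylated receptors, had 0.25 and 0.20. For Arrb1 the value was 0.014 without S replicate 2, and its other probe set, under the filter, had -0.20. Grk2, the widely expressed relative of Grk4, averaged 346 ± 57.7 in congenic and 384 ± 13.1 in S kidneys, a log2 difference of -0.16. It rested on congenic rat 2, at 280, and was -0.016 without that rat.

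Of 17 genes of partners and targets of the receptor, 15 passed the filter. They held 3 of the 4 pathway genes at unadjusted p below 0.05 (Gnas, Gnai2 and Slc4a4), against 10.4% of all named genes tested. The congenic and S values did not overlap in 4 genes that were higher and 2 that were lower. The share over all named genes tested was 17% in either direction, and no set test was run on these counts. Gnas encodes the stimulatory G protein subunit through which the D1 receptor raises cyclic AMP, and read 17106, 17100 and 18275 in congenic rats, against 16170, 14706 and 14179 in S rats. All congenic values were above all S values. The difference was 0.22 ± 0.08 on the log2 scale (limma unadjusted p = 0.0132, adjusted p = 0.348). Its unadjusted p in limma was 0.0649 without the variance trend, 0.0593 without congenic replicate 3 and 0.0687 without S replicate 3. The other Gnas probe sets, both under the filter, had log2 differences of -0.27 and -0.66. Gnai2 encodes an inhibitory subunit that lowers cyclic AMP, and read 1579, 1552 and 1482 in congenic rats, against 1876, 1771 and 1790 in S rats. Here all congenic values were below all S values, with a log2 difference of -0.24 ± 0.09 (unadjusted p = 0.0162, adjusted p = 0.377). In limma the unadjusted p of Gnai2 was 0.121 with arrays centred on the median and 0.0572 without congenic replicate 3. Neither gene passed the adjusted threshold.

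Slc4a4, the basolateral bicarbonate cotransporter of the proximal tubule, gave opposite readings on its 2 probe sets. The brighter read 11030, 11490 and 10903 in congenic rats, against 12468, 14112 and 12171 in S rats. Its congenic values were all below the S values, with a log2 difference of -0.21 (unadjusted p = 0.0184, adjusted p = 0.385). In limma that unadjusted p was 0.144 with arrays centred on the median and 0.0804 without the variance trend. It was 0.0590 without congenic replicate 3 and 0.0965 without S replicate 2. The other probe set read 5560, 6559 and 5490 in congenic rats, against 5613, 4903 and 4658 in S rats, a log2 difference of 0.21 (unadjusted p = 0.0376). A pair of further targets was picked out after their values were seen. Slc9a3, the apical sodium-proton exchanger that dopamine inhibits, averaged 2579 ± 125 in congenic and 2343 ± 111 in S kidneys, and Nherf1, the scaffold of that exchanger, averaged 10886 ± 297 in congenic and 9864 ± 301 in S kidneys. Both were separate between strains, with log2 differences of 0.14 each and adjusted p of 0.586 and 0.515 in limma. Ppp2r2a of the same list was separate upwards too (log2 difference 0.20, limma adjusted p = 0.499). Apart from Gnas, Gnai2 and Slc4a4, the other tested genes of the list overlapped between strains. Separation in either direction was found for 17% of the named genes tested.

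**Figure D3:**
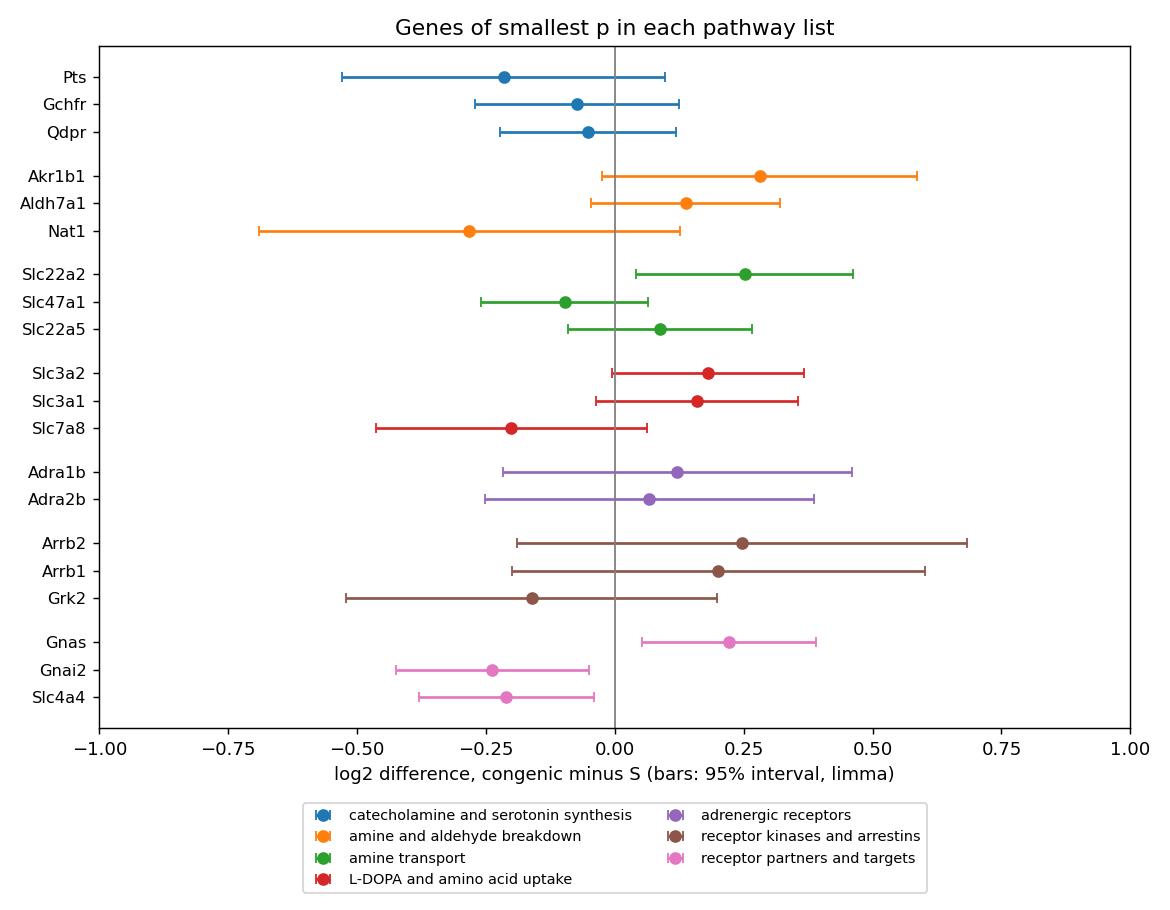
Log2 difference, congenic minus S, with its 95% interval from limma, for the genes of smallest p among those that passed the filter in each list of the dopamine and amine pathway, coloured by list. The unadjusted intervals of Slc22a2, Gnas, Gnai2 and Slc4a4 leave out 0, while none of these genes passed the adjusted threshold.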

How the data were processed

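The deposited intensities, 1 per probe set and array, are linear, and GCOS 1.4 is the software that the submitters' processing notes name. Its settings and detection calls were not given in the sources used here, so dim signals could not be separated from background. Each deposited array had a mean of 500.2 after 2% trimming at either end, and no further scaling was applied. The 57 array controls were left out of 31099 probe sets. Values under the 10th percentile of the table, 12.3, were set to that value before log2 was taken. Probe sets above the median mean log2 signal (15521) were tested with limma 3.58.1 in R 4.3.3 (lmFit, eBayes with trend), with Benjamini-Hochberg adjustment over all of them. Members under that filter were taken from the same fit over all 31042. The exact permutation tests (scipy 1.17.1) were 2-sided. Their smallest p is 0.1, and the number of arrays limits the precision. Of 20826 probe sets with 1 symbol, 20758 were updated through Entrez identifiers (GRCr8, names and order only).

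The members and the pathway and marker lists were chosen with earlier results of these data known. From each pathway list up to 3 tested genes of smallest p are named, each by its brightest tested probe set, and for each member the 2 genes of highest Pearson r. No replicate number in the labels is common to both strains, and samples were not paired. Alternatives covered the floor, pseudocount (16), filter, scaling, variance trend, array weights, a block for the number opening each title (below or above 10), other probe sets and each array left out. The procedure was tested on simulated data. Figures were drawn with matplotlib 3.10.9.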

Additional observations from a re-analysis of the deposited data

How the results depend on the processing

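No member passed adjusted p 0.05 under any of the alternatives run, and the smallest adjusted p of a member was 0.299. The directions of Maoa and Drd1 held under all of theirs, Maoa between 0.10 and 0.32 (unadjusted p = 0.0398 with centring and 0.0264 without congenic replicate 3) and Drd1 between 0.50 and 2.01. Within the lower title numbers alone, which was not among these alternatives, Drd1 was -0.99. Ddc turned to -0.025 after quantile normalisation, to -0.027 with the title number as a block, and to -0.15 on its other probe set. Rnls turned to 0.033 with arrays centred on the median, to 0.00289 with that block and to 0.34 on the third probe set, and Grk4 to 0.075 on its second. With 1 array left out, Ddc ran from -0.032 to 0.050, Maob from -0.051 to 0.21 and Slc22a3 from -0.69 to 0.46, each turning sign, and Slc22a3 was -0.79 with the block. The count of probe sets at adjusted p 0.05 was 9 with centring and 0 to 42 with 1 array left out (42 without S replicate 1, 6 when congenic replicate 1 was left out and 3 for congenic replicate 3). None of those calls was a member or one of the 49 pathway genes. The count of pathway genes at unadjusted p 0.05, an alternative added after seeing the data, was 11 with centring, 1 without the variance trend and 1 to 10 with 1 array left out (10 when S replicate 1 was left out, 8 for congenic replicate 1, 1 for congenic replicate 3). Among the named pathway genes, Qdpr turned to 0.018 with centring, and with 1 array left out Qdpr ran from -0.10 to 0.016, Gchfr from -0.14 to 0.0093 and Adra2b from -0.067 to 0.22. The causes were not tested. The median log2 difference of all tested probe sets was 0.06 with centring and -0.01 without it. For the 3 members under the filter, signal near background limits what could be detected.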

Other observations

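Among the marker lists of other cells, the mast cell protease gene Cpa3 read 60.9, 53.5 and 96.1 in congenic rats, against 133, 126 and 120 in S rats, and was picked out after its values were seen. All congenic values were below all S values, with a log2 difference of -0.89 ± 0.31 (standard error) in the fit over all probe sets (limma unadjusted p = 0.0302, adjusted p = 0.603). Cpa3 was under the filter. Over all probe sets, 13.2% were separate in either direction and 7.92% had unadjusted p below 0.05. Of the other mast cell genes listed, Kit averaged 112 ± 46.3 in congenic and 169 ± 18.9 in S kidneys, and Tpsb2 averaged 110 ± 86.9 in congenic and 118 ± 73.0 in S kidneys. Hdc, which makes histamine, averaged 37.6 ± 24.9 in congenic and 31.0 ± 11.5 in S kidneys, while Hnmt, which inactivates histamine by methylation, averaged 5349 ± 401 in congenic and 5852 ± 1179 in S kidneys. The values of Kit, Tpsb2, Hdc and Hnmt overlapped between strains. The mast cell chymase gene Cma1 was below the floor of 12.3 on all 6 arrays, at 6.31, 8.97 and 7.21 in congenic rats and 3.25, 2.86 and 2.76 in S rats, so it gave no measurable difference, although the deposited values lie the other way from Cpa3. Of the same list, 2 genes passed the filter. Cd68, a macrophage gene, read 240.1, 274 and 307 in congenic rats, against 155, 234 and 151 in S rats, with all congenic values above all S values (log2 difference 0.63, limma unadjusted p = 0.0142, adjusted p = 0.357). Separation in either direction was found for 17% of the named genes tested. In the other marker lists, Hnf4a, Slc22a6, Hsd11b2 and Pecam1 were also separate upwards and Fxyd4 downwards. Ptprc, the pan-leukocyte gene, averaged 180.4 ± 25.1 in congenic and 231 ± 42.1 in S kidneys, with overlapping values.

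The neuropeptide gene Npy, carried by sympathetic nerves, read 154, 128 and 398 in congenic rats, against 121, 155 and 182 in S rats. Its values overlapped, with a log2 difference of 0.40 (limma unadjusted p = 0.269, adjusted p = 0.719). The high congenic rat was rat 3, which was also the congenic rat of highest Th (99.1, with 31.7 and 26.5 in congenic rats 1 and 2) and of highest Pnmt, at 70.7. In S rats Th read 95.2, 83.1 and 70.1, and Pnmt 29.7, 6.72 and 5.56. Th and Pnmt were under the filter, and Npy, Th and Pnmt were picked out after their values were seen. Of the other markers of adrenal medulla and sympathetic nerve, Chgb was highest among congenic rats in rat 1 (47.4) and Slc18a1 in rat 2 (19.4). Dbh and Phox2a were highest in rat 3 (61.8 and 97.9), with 54.2 and 94.3 in rat 1. Chga was below the floor in congenic rat 3 as in all other rats. Slc18a2, of the amine transport list, was lowest there (20.3, with 94.1 and 84.5 in congenic rats 1 and 2). Dim genes of other lists, such as Grk1 (171) and Adra2c (114), were also highest in congenic rat 3.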
